A study of Homo sapiens with 6 samples.

Results

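The genes described here are IFITM1, IFITM2 and IFITM3, 3 interferon-induced transmembrane protein genes that lie side by side on chromosome 11, and BST2, the gene of tetherin, on chromosome 19. They were taken by symbol, 4 of the 23368 gene symbols listed in the count files, and all 4 passed the filter on low counts with 13209 genes in all. They were chosen by their change after maltonis in these same counts, which was known to stand apart from that of other interferon-stimulated genes, so their differences between the groups are described below without a test. RNA was sequenced from NB4 cells, an established human line of acute promyelocytic leukemia, grown in RPMI medium with fetal bovine serum. Cells were either not treated (n.t.) or exposed for 24 h to 10 µM maltonis, a synthetic hydroxypyrone derived from maltol, with 3 libraries per group that the study describes as biological replicates. Every library came from the same cell line, no vehicle control is described, and only RNA was measured, so nothing here speaks of IFITM or tetherin protein.

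IFITM proteins are small palmitoylated membrane proteins that hinder the fusion of enveloped viruses with host membranes. IFITM1 sits mainly at the plasma membrane, while IFITM2 and IFITM3 are sorted to endosomes and lysosomes. Tetherin acts at the other end of the viral cycle: it spans the cell membrane, is anchored in it at both ends, and holds newly budded particles at the cell surface. All 4 genes are textbook targets of type I interferon, whose receptor signals through kinases and transcription factors to a promoter motif called the interferon-stimulated response element (ISRE).

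The 6 libraries held between 18492154 and 38205483 counts, so that 3 counts, taken as the floor of detection, equalled 0.0785 to 0.162 CPM, counts scaled to a common library size. This floor and all intervals on counts cover counting error only. All 11 myeloid marker genes examined were expressed, led by MPO, the myeloperoxidase gene, at 14600 ± 1490 CPM (SD, n = 3) in n.t. cells. Of 11 markers of other cell types, CD3D, NCAM1, EPCAM, KRT18 and PECAM1 had 11.1 to 43.7 CPM on average in n.t. cells, and the other 6 had at most 11 counts in any library. Of these 5 markers, 4 fell and 1 rose after maltonis (FDR under 0.01), and their part in the results was not tested. In bulk RNA, fewer cells that express a gene and less RNA per cell cannot be told apart. A code in the names of the libraries sets replicate 1 apart from replicates 2 and 3 in both groups. Its meaning is not stated, and values for replicate 1 and for replicates 2 and 3 are given beside the pooled ones.

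The coding sequences of the IFITM genes are alike enough that short reads can fit more than 1 of them, which bears on every count below. IFITM2 and IFITM3 were identical at 93.9% of 396 aligned coding bases, IFITM1 and IFITM3 at 87.5% of 336, and IFITM1 and IFITM2 at 85.4% of 336 (GRCh38, GENCODE version 29). The longest identical run had 99 bases between IFITM2 and either of the other genes. A stretch of 90 bases, a length set for display, was identical in all 3 genes and ran over an exon junction. It is shown because a read that lies within it cannot be given to 1 gene. Its place is chr11:308431-309094 (plus strand, IFITM2), chr11:314349-315003 (plus strand, IFITM1) and chr11:319909-320572 (minus strand, IFITM3), each interval holding the intron.

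IFITM1, IFITM2 and IFITM3 shared stretch: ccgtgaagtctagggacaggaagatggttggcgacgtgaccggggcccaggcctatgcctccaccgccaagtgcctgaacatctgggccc

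Close to the end of the coding sequence the genes part again. The following 60 bases of IFITM2 (chr11:309100-309159, plus strand) and IFITM3 (chr11:319844-319903, minus strand), each within 1 exon, are shown because reads over them can separate the most similar pair, and capitals mark the 8 bases that differ.

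IFITM2: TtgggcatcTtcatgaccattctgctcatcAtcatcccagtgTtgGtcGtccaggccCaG

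IFITM3: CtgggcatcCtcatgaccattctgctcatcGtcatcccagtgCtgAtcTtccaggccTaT

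Over the main transcript of each gene, 12.2% of all windows of 50 bases in IFITM1 (98 of 806), 8.36% in IFITM2 (51 of 610) and 13.0% in IFITM3 (99 of 759) also occurred in another IFITM gene, against 0 of 970 in BST2. The main transcript of IFITM2 was set by hand, and those of the other genes by a rule on length. An annotated transcript of IFITM2 (chr11:307631-315272, plus strand) runs on into the last exon of IFITM1 (chr11:313506-315272, plus strand), so over all transcripts 29.4% of the windows of IFITM1 (314 of 1067) occurred in IFITM2. Over all transcripts, 34.1% of the windows of IFITM2 (496 of 1453), 32% of IFITM1 (341 of 1067) and 17.4% of IFITM3 (233 of 1342) occurred in some other gene. IFITM3 lies beyond them on the minus strand (chr11:319669-327537), and BST2 at chr19:17402939-17405648, minus strand. The read length and the treatment of reads with several matches are not given in the sources used here, so the split of counts among the IFITM genes is uncertain, and their sum is given beside each of them.

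IFITM1 counted 1063, 1785 and 1485 reads in n.t. replicates 1, 2 and 3, and 693, 890 and 928 in maltonis replicates 1, 2 and 3. Scaled to CPM these are 56.6, 49.3 and 44.8 against 35.8, 26.5 and 32.9. Each maltonis library lay below each n.t. library. The mean was 50.2 ± 5.98 CPM in n.t. and 31.8 ± 4.73 CPM in maltonis-treated cells (SD, n = 3), a fitted log2 difference of −0.66 (SE 0.126). Replicate 1 alone gave −0.66 and replicates 2 and 3 gave −0.67.

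IFITM2 had the most counts of the 3 in n.t. cells and the greatest difference. It counted 2062, 2769 and 2218 reads in n.t. and 776, 810 and 709 in maltonis replicates, that is 110, 76.4 and 66.9 CPM against 40.1, 24.2 and 25.2. The groups did not overlap, although replicate 1 stood well above the other two in both. The mean was 84.4 ± 22.5 CPM in n.t. and 29.8 ± 8.91 CPM in maltonis-treated cells (SD, n = 3), a ratio of 0.353 and a log2 difference of −1.51 (SE 0.233). Replicate 1 alone gave −1.45, and replicates 2 and 3 gave −1.54.

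IFITM3, the member best known for blocking influenza virus, had few counts, though more than the floor of 3 in each library. It had 17, 38 and 18 counts in n.t. and 6, 17 and 22 in maltonis replicates, equal to 0.906, 1.05 and 0.543 CPM against 0.31, 0.507 and 0.781. Here the groups overlapped: maltonis replicate 3 lay above n.t. replicate 3. The exact Poisson 95% interval of the n.t. counts ran from 9.9 to 27.2, 26.9 to 52.2 and 10.7 to 28.4, and that of the maltonis counts from 2.2 to 13.1, 9.9 to 27.2 and 13.8 to 33.3. The fitted log2 difference was −0.58 (SE 0.368), and −0.345 in a fit of replicates 2 and 3. Replicate 1 gave −1.49 on log2 CPM with 0.5 counts added. On log2 CPM without added counts, replicate 1 gave −1.55 and replicates 2 and 3 gave −0.262. The fitted value was −0.32 without n.t. replicate 2 and −0.96 without maltonis replicate 3. A direction for IFITM3 could not be set with so few counts and this spread between replicates.

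The sum of the 3 IFITM genes is the same however counted reads were split among them, but it misses reads that the counting may have dropped because they match more than 1 gene. It was 167, 127 and 112 CPM in n.t. and 76.2, 51.2 and 58.9 CPM in maltonis replicates. The highest maltonis library lay below the lowest n.t. library, and replicate 1 was again the highest of either group. Its mean was 135 ± 28.6 CPM in n.t. and 62.1 ± 12.8 CPM in maltonis-treated cells (SD, n = 3), a log2 difference of −1.13 (SE 0.176), with −1.14 in replicate 1 and −1.12 in replicates 2 and 3.

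BST2 differed the other way. Its counts were 1253, 3216 and 2746 in n.t. and 2082, 3701 and 3047 in maltonis replicates, and its levels 66.7, 88.8 and 82.8 CPM against 108, 110 and 108 CPM. Each maltonis library lay above each n.t. library, and the maltonis libraries lay close together while n.t. replicate 1 was the lowest of all. The mean was 79.4 ± 11.4 CPM in n.t. and 109 ± 1.51 CPM in maltonis-treated cells (SD, n = 3), a ratio of 1.37 and a log2 difference of 0.45 (SE 0.0987). The difference was 0.69 within replicate 1 and 0.35 over replicates 2 and 3.

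Maltonis libraries lay below n.t. libraries without overlap for 2 of the 4 genes, IFITM1 and IFITM2, and this held for 37.8% of all genes tested. They lay above without overlap for 1 of the 4, BST2, and for 38.8% of all genes tested. Differences of this kind were thus common in these cells and do not by themselves set the 4 genes apart. With a fold change of over 2.5, the fold threshold the study used, and an FDR under 0.01, 9.96% of all genes tested rose and 10.4% fell. The study also set a lower limit on expression level, which was not applied here. Of the 4 genes IFITM2 alone lay beyond that fold. Among all tested genes the log2 difference stood at percentile 8.4 for IFITM2, 22.7 for IFITM1, 25.1 for IFITM3 and 69.6 for BST2.

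**Figure D1:**
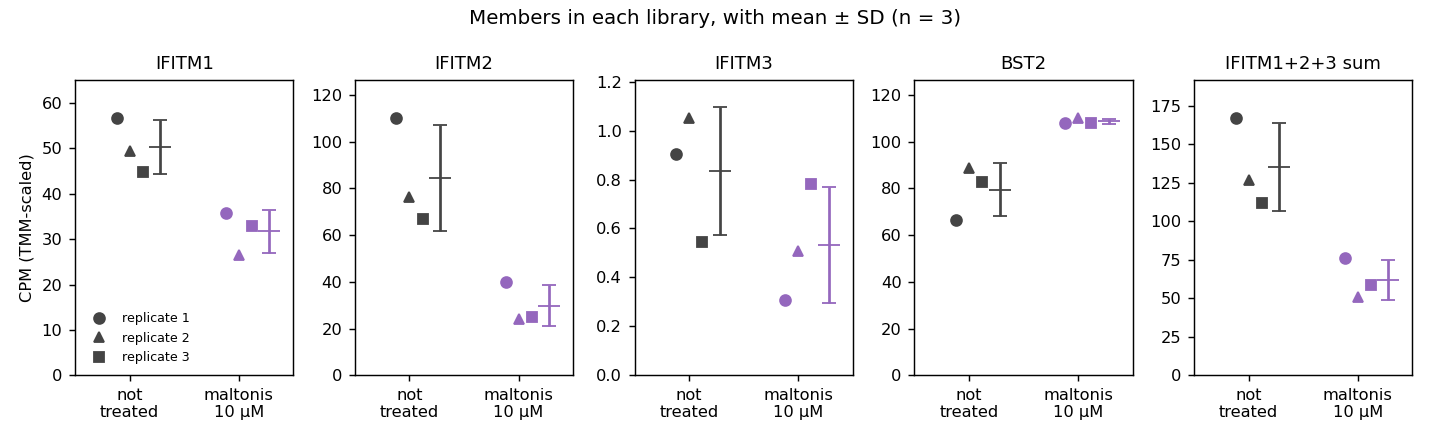
CPM of IFITM1, IFITM2, IFITM3, their sum and BST2 in each library (points, shaped by replicate), with mean ± SD of 3 libraries beside them, for n.t. cells and cells given 10 µM maltonis. Each panel has its own axis from 0. The groups are apart for IFITM1, IFITM2, the sum and BST2 and overlap for IFITM3, which stays at or below 1.05 CPM.

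Libraries of 1 group differed more in the IFITM genes than in most genes. The pooled SD within groups, on the log2 CPM scale, was 0.198 for IFITM1, 0.388 for IFITM2 and 0.571 for IFITM3, against a median of 0.124 over all genes tested. This put IFITM2 at percentile 90.2 of the spread, IFITM3, with its few counts, at 96.0 and IFITM1 at 70.5. BST2, with 0.152, stood at percentile 59.5.

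For a comparison between genes, CPM was divided by the summed length of annotated exons in kilobases (RPKM). In n.t. cells BST2 came first with 71.0 ± 10.2 RPKM, then IFITM2 with 54.7 ± 14.7, IFITM1 with 46.5 ± 5.51 and IFITM3 with 0.618 ± 0.194 (SD, n = 3). The ranges of BST2 (59.6 to 79.4), IFITM2 (43.4 to 71.3) and IFITM1 (41.5 to 52.4) overlapped between neighbours in this order, whereas IFITM3 (0.403 to 0.779) was far below all of them. In maltonis-treated cells the order was BST2 with 97.1 ± 1.04 RPKM, IFITM1 with 29.4 ± 4.41, IFITM2 with 19.3 ± 5.78 and IFITM3 with 0.395 ± 0.175. There BST2 (96.5 to 98.3) lay apart from the IFITM genes, while IFITM1 (24.5 to 33.1) and IFITM2 (15.7 to 26.0) overlapped. These places depend on the transcripts counted: with the exons of the basic annotation set, which shorten IFITM2 from 1543 to 1057 bases, n.t. levels were 79.9 ± 21.4 RPKM for IFITM2 and 78.0 ± 11.2 for BST2, and maltonis levels were 30.5 ± 4.55 for IFITM1 and 28.2 ± 8.41 for IFITM2.

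The make-up of the IFITM counts moved together with their sum. IFITM2 took 65.6%, 60.3% and 59.6% of the counts on the 3 genes in n.t. replicates, and 52.6%, 47.2% and 42.7% in maltonis replicates. The IFITM2 shares did not overlap between the groups, and their exact binomial 95% intervals in n.t. (58.0 to 67.3) and maltonis libraries (40.3 to 55.2) did not meet. These intervals leave out the spread between replicates, and the genes were chosen by their change in these same counts. How often the shares of other genes part in this way was not tested. IFITM1 went from 37.5% ± 3.25 to 51.6% ± 4.48 (SD, n = 3), and IFITM3 stayed between 0.407% and 1.33% in all libraries. Put as a ratio, IFITM2 had 1.94, 1.55 and 1.49 counts for each count of IFITM1 in n.t. replicates and 1.12, 0.91 and 0.764 in maltonis replicates. The ratio was lower in every maltonis library than in any n.t. library, as far as the counting kept the 2 genes apart.

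**Figure D2:**
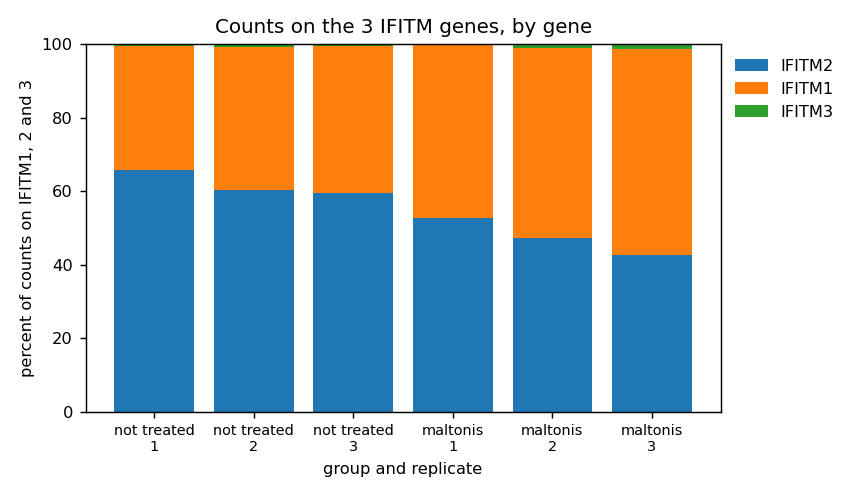
Percent of the counts on IFITM1, IFITM2 and IFITM3 that fell on each gene, stacked to 100 for each of the 6 libraries. IFITM2 takes 59.6% to 65.6% in n.t. and 42.7% to 52.6% in maltonis libraries, and IFITM3 is a thin band at the top.

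To set the 4 genes beside the response they belong to, 50 other interferon-stimulated genes were examined, of which 45 were tested. Of these 42 rose, 1 fell and 2 did not pass an FDR of 0.01 by edgeR's quasi-likelihood test (93.3% higher and 2.22% lower, against 31.9% and 32.1% of all genes tested). Their median log2 difference was 2.30, against 0.01 over all genes. OAS3, a sensor of double-stranded RNA that makes the activator of RNase L, rose most, by 5.34 (SE 0.125, adjusted p = 2.05e-08), from 1.11 ± 0.115 to 45.6 ± 4.24 CPM. EPSTI1 (4.27) and MX1, a dynamin-like antiviral GTPase (4.0), followed. At the other end stood MX2 with −0.20 (SE 0.0534, adjusted p = 0.00769), ADAR, an RNA-editing enzyme, with 0.10 (adjusted p = 0.192) and PARP12 with 0.12 (adjusted p = 0.112). PARP12 passed as higher with scaling by total counts (adjusted p = 0.00802).

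MX2, an inhibitor of the nuclear entry of HIV, was thus the 1 gene of the list that fell, from 129 ± 2.68 to 112 ± 2.62 CPM, and this call did not hold without n.t. replicate 2 (adjusted p = 0.0319), maltonis replicate 2 (0.0258) or maltonis replicate 3 (0.014). None of the 45 genes had a log2 difference below those of IFITM1, IFITM2 or IFITM3. The IFITM genes were chosen by their change in these same counts, so these places were known beforehand and are no evidence. No direction could be set for IFITM3. LY6E, an interferon-stimulated gene kept in another list, lay lower still (−2.84). Of the 45 genes, 4 had a log2 difference below that of BST2, namely MX2, ADAR, PARP12 and XAF1 (0.34, SE 0.0782). XAF1, an antagonist of the apoptosis inhibitor XIAP, rose with an adjusted p of 0.00401 and lost the call without n.t. replicate 2 (adjusted p = 0.0212) or any 1 maltonis replicate (0.0154 to 0.0176).

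**Figure D3:**
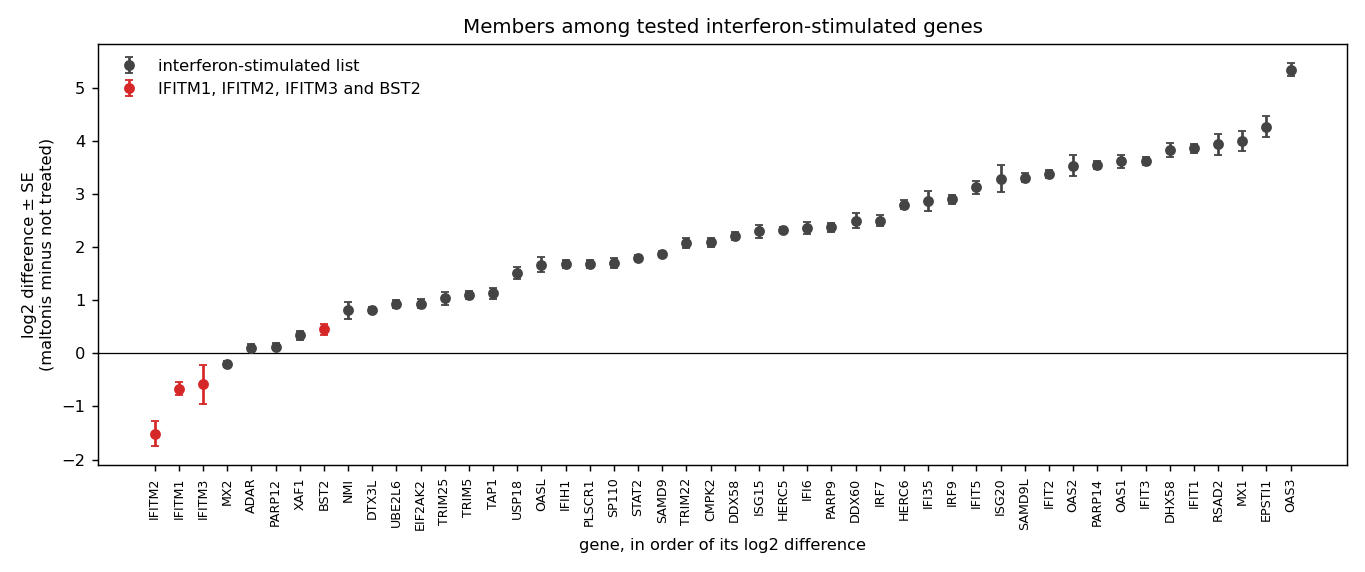
Log2 difference between maltonis-treated and n.t. cells with its SE for 44 of the 45 tested interferon-stimulated genes (grey) and for IFITM1, IFITM2, IFITM3 and BST2 (red), in order from lowest to highest. The 3 IFITM genes, chosen by their change in these same counts, take the lowest places, although no direction could be set for IFITM3. BST2 stands above 4 genes of the list, which reaches 5.34 for OAS3 and does not hold LY6E.

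Promoters were searched for the core of the ISRE, GAAA and again GAAA with any 2 bases between them, on both strands over the 250 bases before each RefSeq transcription start (GRCh38.p14). Promoters of IFITM1, IFITM3 and BST2 were examined, and that of IFITM2 was not analysed here. Each of these 3 held at least 1 match, and 30 bases around the matches are printed because they show how close the matches lie to the start and to each other. Capitals mark the ISRE core, and each sequence runs along the strand of its gene.

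IFITM1, chr11:313990-314019, plus strand: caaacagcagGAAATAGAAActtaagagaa

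IFITM3, chr11:320885-320914, minus strand: agGAAAAGGAAActgttgaGAAACCGAAAc

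BST2, chr19:17405738-17405767, minus strand: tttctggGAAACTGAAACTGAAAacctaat

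The windows lie 21 to 50 bases (IFITM1), 25 to 54 bases (IFITM3) and 108 to 137 bases (BST2) before the start. IFITM1 had 1 match, IFITM3 had 2 separate matches, and BST2 had 2 that overlap. The core occurred in 3.71% of promoters (1014 of 27305 genes) and in 61.0% of the interferon-stimulated list (25 of 41 with an entry). The core of the GAS element, through which interferon gamma acts, TTC and GAA with any 3 bases between them, reads the same on both strands. Within the 250 bases searched it occurred once for IFITM1, in 2 places for BST2 and not for IFITM3, and it occurred in 8.09% of all promoters (2208 genes). Of 339 tested genes with an ISRE core, 131 rose (38.6%) and 88 fell (26.0%), with a median log2 difference of 0.13, and 57 had a log2 difference below that of IFITM1. Of the 9852 tested genes without the core, 31.4% rose and 33.5% fell (median −0.01), and 2253 had a log2 difference below that of IFITM1. Within the interferon-stimulated list, 20 of 21 tested genes with the core rose and none fell (median 2.37), and so did 14 of 15 without it, again with none that fell (median 1.80). A match is a description of the letters and does not show that a factor was bound.

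Genes that carry the interferon signal itself mostly rose: 13 of 20 were higher and 3 lower (65.0% and 15.0%, against 31.9% and 32.1% of all genes tested, with a median log2 difference of 0.58). Among the receptor chains of type I interferon, IFNAR1 rose by 0.66 (SE 0.0934, adjusted p = 0.000214) and IFNAR2 had 0.06 (adjusted p = 0.658). Of the kinases bound to them, TYK2 rose by 1.02 (SE 0.0898, adjusted p = 1.09e-05), JAK1 fell by 0.37 (SE 0.0545, adjusted p = 0.00027), and JAK2, which serves the receptor of interferon gamma, rose by 0.34 (adjusted p = 0.00142), a call lost without maltonis replicate 2 (0.0153) or 3 (0.0135). Of the factors that bind the ISRE, STAT2 rose by 1.80 (SE 0.0536) and IRF9 rose by 2.90 (SE 0.0889), the latter from 6.5 ± 0.586 to 48 ± 2.13 CPM.

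The factors that induce interferon genes differed among themselves: IRF7 rose by 2.50 (SE 0.108) and IRF3 by 0.53 (SE 0.0799). IRF8, a factor of myeloid and dendritic cells, fell by 0.56 (SE 0.11, adjusted p = 0.00157), whereas IRF1 rose by 0.45 (SE 0.0683, adjusted p = 0.000345). Of the receptor chains of interferon gamma, IFNGR1 rose by 0.63 (SE 0.0722, adjusted p = 5.59e-05) and IFNGR2 fell by 1.08 (SE 0.0703, adjusted p = 1.77e-06). The inhibitors SOCS1 (3.07, SE 0.203) and USP18 (1.51, SE 0.118) rose, whereas SOCS3 had −0.27 (SE 0.187, adjusted p = 0.218). IFNB1, the gene of interferon beta, stood at 0.111 ± 0.0424 CPM in n.t. cells, near the floor, and at 0.662 ± 0.277 CPM in maltonis-treated cells (adjusted p = 0.00102).

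Other antiviral factors that act at membranes or on viral envelopes did not share 1 direction. Of 11 tested, 6 rose and 2 fell (54.5% and 18.2%, against 31.9% and 32.1% of all genes tested, with a median log2 difference of 0.35). LGALS3BP, a secreted glycoprotein, rose by 4.0 (SE 0.0993) and RSAD2, which makes an antiviral nucleotide, by 3.94 (SE 0.197). GBP5 (1.07) and GBP2 (0.90), GTPases that inhibit the protease furin, NCOA7 (0.97) and SERINC3 (0.35), which lowers the infectivity of retroviral particles, also rose. LY6E, a lipid-anchored surface protein and an interferon-stimulated gene, fell by 2.84 (SE 0.118, adjusted p = 1.66e-07), from 28.8 ± 2.66 to 4.03 ± 0.498 CPM, a log2 difference further down than the −1.51 of IFITM2. ZMPSTE24, a membrane protease known as a partner of IFITM proteins in virus restriction, fell by 0.59 (SE 0.135, adjusted p = 0.00359), which did not hold without n.t. replicate 2 (adjusted p = 0.0153) or 3 (0.0101). SERINC5, SELPLG and MARCH8 had 0.17, 0.23 and −0.17 and did not pass the test, although SERINC5 and SELPLG passed as higher with scaling by total counts (adjusted p = 0.00337 and 0.00192) or upper quartile (0.00572 and 0.00284).

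**Figure D4:**
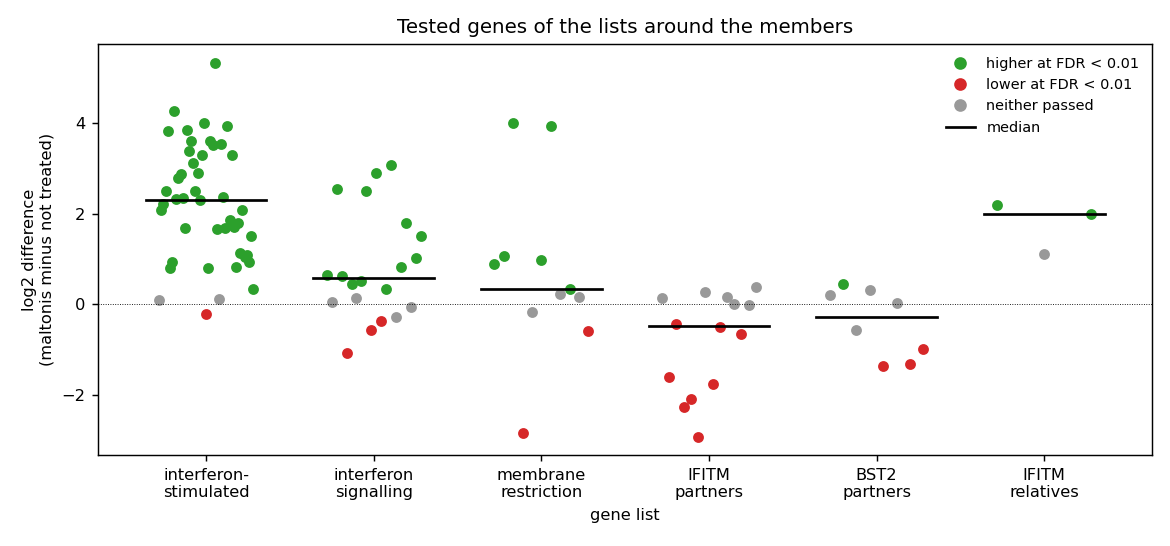
Log2 difference between maltonis-treated and n.t. cells for each tested gene of 6 lists, coloured by its call at an FDR of 0.01, with the median of each list as a black bar. Medians run from −0.47 for IFITM partners to 2.30 for interferon-stimulated genes, and the lowest points of the membrane restriction and IFITM partner lists are LY6E (−2.84) and NEDD4 (−2.92).

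Genes whose products modify or bind IFITM proteins fell or did not pass the test: 0 of 14 rose and 8 fell (57.1%, median log2 difference −0.47, against 32.1% and 0.01 over all genes). NEDD4, the ubiquitin ligase that marks IFITM3 for degradation, fell by 2.92 (SE 0.185, adjusted p = 1.5e-06). FYN, a kinase that phosphorylates IFITM3, fell by 2.27 (SE 0.098), and SETD7 and KDM1A, which add and remove a methyl group on it, fell by 1.75 (SE 0.0892) and 2.09 (SE 0.0578). The tetraspanins CD81 and CD9 fell by 1.6 (SE 0.083) and 0.43 (SE 0.0954), CD9 with an adjusted p of 0.00304 that became 0.0111 without n.t. replicate 2 and 0.0178 with scaling by total counts. VAPA, which links the endoplasmic reticulum to other membranes, fell by 0.50 (SE 0.0596).

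Among the palmitoyltransferases, which attach the lipid that IFITM proteins need, ZDHHC3 fell by 0.66 (SE 0.0521, adjusted p = 5.41e-06). ZDHHC20 was at 176 ± 7.87 and 176 ± 6.34 CPM in the groups (log2 difference 0.00, SE 0.059), ZDHHC7 had −0.01 (SE 0.0538), and ZDHHC9 had 0.38 (SE 0.114, adjusted p = 0.0144), which passed without n.t. replicate 1 (0.00217). ABHD16A, an enzyme that removes the lipid, had 0.13 (SE 0.089), VCP, an unfolding ATPase, had 0.16 (SE 0.0547, adjusted p = 0.024), and OCLN had 0.28 (SE 0.421).

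Of 8 tested genes for partners of tetherin, AP2M1, a subunit of the clathrin adaptor that takes up membrane proteins, rose by 0.46 (SE 0.0899, adjusted p = 0.00157) and 3 fell. These are 12.5% and 37.5%, against 31.9% and 32.1% of all genes tested. BTRC, the substrate receptor through which the viral protein Vpu has tetherin degraded, fell by 1.36 (SE 0.0703), and SYK and TRAF6, through which tetherin signals to NF-κB, fell by 1.31 (SE 0.0669) and 0.98 (SE 0.0981). AP1M1, BCL2L1, MAP3K7 and ARHGAP44 had 0.20, 0.32, 0.02 and −0.57 and did not pass. BCL2L1 passed as higher without maltonis replicate 3 (adjusted p = 0.00939) and with scaling by total counts (0.0089). AP1M1 passed as higher with scaling by total counts (adjusted p = 0.00146) or upper quartile (0.00257). The median was −0.27, and its sign depended on the filter on low counts.

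The relatives of the IFITM family were mostly silent. Of 10, 3 were tested, and IFITM10 rose by 2.19 (SE 0.205, adjusted p = 1.57e-05), from 8, 15 and 17 counts in n.t. to 40, 63 and 66 in maltonis replicates. TMEM91 rose by 1.99 (SE 0.218, adjusted p = 4.27e-05), and PRRT2 had 1.11 (SE 0.48, adjusted p = 0.0635). IFITM5, the bone-specific gene next to IFITM2, had 2, 10 and 4 counts in n.t. and 0 in each maltonis replicate, too few to test, and the pseudogene IFITM4P had 1 count in all.

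The protein-coding genes on either side were read in RefSeq order, 5 on each side. Around the IFITM cluster 6 of 10 were tested, of which 4 fell and 1 rose. These numbers are too small to set against the 32.1% that fell and 31.9% that rose over all genes tested. ATHL1, now called PGGHG, fell by 1.76 (SE 0.154), PTDSS2, a phosphatidylserine synthase, by 1.30 (SE 0.0812), SIGIRR, an inhibitor of Toll-like receptor signalling, fell by 1.29 (SE 0.104), and SIRT3, a mitochondrial deacetylase, by 0.46 (SE 0.126, adjusted p = 0.00986). The last call was lost without any 1 library other than n.t. replicate 1 (adjusted p = 0.0123 to 0.0352), as well as with scaling by total counts (0.0354) or upper quartile (0.0258) and with a filter of CPM above 1 (0.012). NLRP6 was higher, at 0.839 against 0.159 CPM (adjusted p = 0.000197), near the floor in n.t. cells and with at most 28 counts in a library. PSMD13, a proteasome subunit, had −0.19 (SE 0.0588, adjusted p = 0.0183) and passed as lower with DESeq2 (adjusted p = 0.00997).

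Around BST2 6 of 10 neighbours were tested, of which 4 rose and 2 fell, numbers too small to set against the 31.9% and 32.1% of all genes tested. FAM125A, now called MVB12A, a subunit of the ESCRT-I sorting complex and the nearest neighbour tested, rose by 1.96 (SE 0.128, adjusted p = 1.76e-06). SLC27A1, a fatty acid transporter, rose by 1.43 (SE 0.141), PGLS by 0.79 (SE 0.119) and DDA1 by 0.64 (SE 0.117). GTPBP3, an enzyme that modifies mitochondrial tRNA, fell by 4.35 (SE 0.221), from 30.6 to 1.52 CPM, and ANO8 fell by 0.97 (SE 0.159). Neighbours of either locus thus differed in both directions, around the IFITM cluster through NLRP6 alone.

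**Figure D5:**
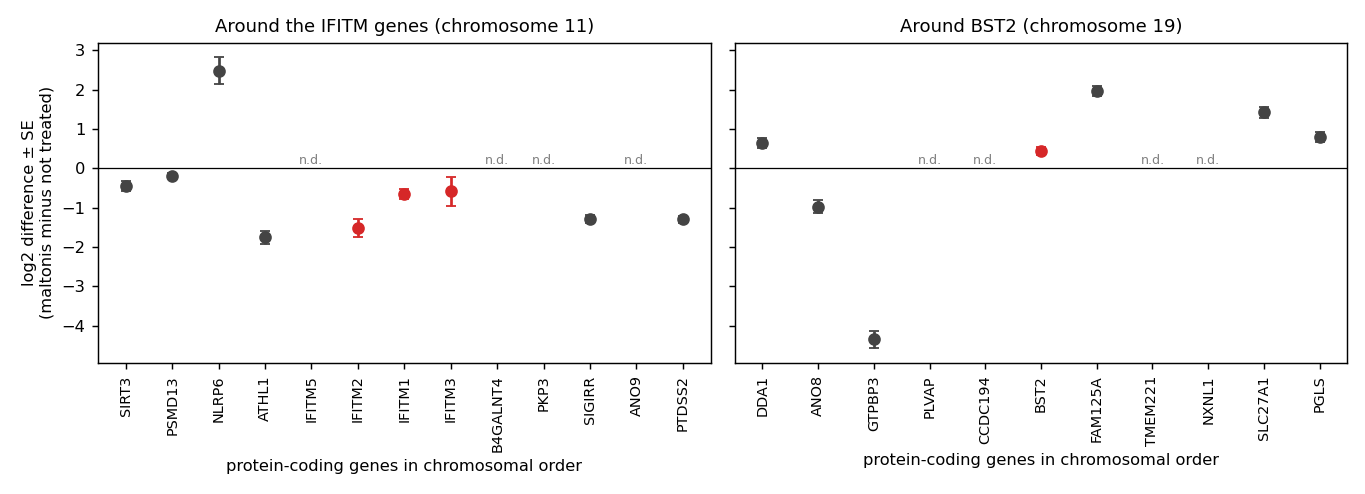
Log2 difference with its SE for the protein-coding genes around the IFITM cluster (left) and BST2 (right), in chromosomal order, with the 4 described genes in red and n.d. where a gene had too few counts to test or was not listed. Of the tested neighbours of the IFITM cluster 4 of 6 fell, and of those of BST2 4 of 6 rose.

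The 5 tested genes whose log2 CPM followed that of the IFITM sum most closely over the 6 libraries were NKD2, FAM86EP, ECE2, C14orf167 and C7orf50, with Pearson's r of 0.9994, 0.9991, 0.9983, 0.9974 and 0.9963. Their own log2 differences lay between −1.23 (FAM86EP) and −0.45 (ECE2). The points share the treatment and the libraries, and 2758 of 13205 other genes (20.9%) had an r above 0.9, so a high value was common.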

How the data were processed

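The authors deposited 1 table of HTSeq counts per library, whole numbers of reads per gene symbol without normalization. Libraries were stranded and depleted of ribosomal RNA. The submitters' processing notes name TopHat, Bowtie2, HTSeq and hg19, while the gene annotation, the strand setting and the handling of reads with several matches are not given in the sources used here. Counts were fitted in edgeR 4.0.16 (R 4.3.3), scaled by TMM and filtered by filterByExpr, and compared by the quasi-likelihood test with no covariate and all 6 libraries in 1 fit. P-values were adjusted by the Benjamini-Hochberg method over 13209 genes, a call needed an FDR under 0.01, and each adjusted p printed comes from that test. limma 3.58.1 is a dependency of edgeR, and DESeq2 1.42.0 served as an alternative. The statistics were first tested on simulated data. Replicates of a group differed by more than sampling noise (chi-square per degree of freedom 4.33 to 35.0), so each counted as its own sample. Log2 differences are maltonis minus n.t., and CPM uses TMM-scaled library sizes.

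Exon lengths and coding sequences came from GENCODE version 29 (GRCh38), and promoters and gene order from RefSeq. No coordinate was converted from hg19. Sequences were compared with Biopython 1.88. The genes and lists were chosen with earlier results of these data known, so they are not independent evidence, and the 4 genes described are in none of the lists. Eligible to be named were the 4 genes, tested genes of the smaller lists (not each of which is named), the 3 highest and 3 lowest interferon-stimulated genes and any that fell, 5 neighbours on each side, and the 5 genes most like the IFITM sum. XAF1 and untested IFITM relatives fall outside this rule and were named after their values were seen. Alternatives covered scaling, filter, test, threshold, replicate block, replicate 1 alone, replicates 2 and 3 alone, and each library left out. A gene of the interferon lists is not reported here by name or plotted with its name.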

Additional observations from a re-analysis of the deposited data

How the results depend on the processing

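The log2 difference kept its sign for IFITM1 (−0.78 to −0.54), IFITM2 (−1.79 to −1.29), the IFITM sum (−1.3 to −0.96), BST2 (0.33 to 0.69) and IFITM3 (−1.49 to −0.32) under each alternative that gave a value. For IFITM3 the libraries numbered 3, not run alone as an alternative, differed the other way (0.525 on log2 CPM without added counts, 1 library per group). A filter of CPM above 1 in 3 libraries left IFITM3 untested. With 1 library left out in turn, the ranges were −0.78 to −0.57 for IFITM1, −1.79 to −1.29 for IFITM2, −0.96 to −0.32 for IFITM3, 0.33 to 0.53 for BST2 and −1.3 to −0.96 for the sum. Genes that rose then numbered 3503 to 4336 and those that fell 3801 to 4457, and the interferon-stimulated list had 40 to 42 genes that rose, 0 to 1 that fell and a median of 2.19 to 2.29. Replicate 1 alone gave −1.49 for IFITM3, 0.69 for BST2 and a list median of 2.09, with 1 library per group and no test. Scaling by total counts moved the median of all genes from 0.01 to 0.13 and that of the list to 2.42, and upper-quartile scaling moved the former to 0.10. The 1 fall in the list (MX2) became 0 under both scalings, without a filter, with the CPM filter, with the likelihood ratio test and at a fold change beyond 2.5. That last threshold left 1316 genes that rose and 1369 that fell in place of 4213 and 4239, with 2 and 1 in the membrane list (6 and 2 before), 6 and 0 in the signalling list (13 and 3), 5 falls among IFITM partners (8) and 0 and 1 among tetherin partners (1 and 3). IFITM partners that rose, 0 by the main test, were ZDHHC9 and VCP (2) under either scaling or DESeq2, and ZDHHC9 (1) without a filter or with the likelihood ratio test. Tetherin partners that rose, 1 by the main test, were 3 by total counts and 2 by upper quartile. Without a filter 1 IFITM relative fell, in place of 0. At an FDR under 0.05 the partner lists had 2 and 3 that rose. The median of the tetherin partners turned positive with no filter (0.0174), with the CPM filter (0.042) and in replicate 1 alone (0.00757), with other genes tested in the first cases and fewer samples in the last.

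Same-numbered libraries deviated together with r of 0.243, 0.0666 and 0.131, against −0.186 to 0.103 for libraries of unlike number. Replicate 2 of n.t. correlated better with maltonis replicate 3 (0.0889) than with its own number. Whether the numbers mark pairs was not settled, so the main fit took none and a fit with a replicate block is given beside it. In the fit with a replicate block, log2 differences were −0.67 for IFITM1, −1.51 for IFITM2, −0.57 for IFITM3, 0.46 for BST2 and −1.12 for the sum, and 4602 genes rose and 4620 fell. The block added 1 rise each among IFITM partners (ZDHHC9) and tetherin partners (BCL2L1). Depth limits IFITM3 above all, with at most 38 counts in a library.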
